A study of Solanum tuberosum with 12 samples.

Results

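The comparison set potato leaves after 8 weeks in soil against leaves after 3 weeks, both from plants at normal temperature (NT), with light periods at 22 °C and dark periods at 16 °C. All plants were Solanum tuberosum cultivar Desiree, a potato grown for its tubers, propagated in sterile culture and then kept in soil at 12 h of light and 12 h of darkness. RNA came from the upper 5 leaves, so the age named here is that of the plant and not of a marked leaf. NT_8W and NT_3W held 3 libraries each, 6 of the 12 in the study. The other libraries were HT_8W and HT_3W, from plants at 35 °C by day and 29 °C by night (high temperature, HT), again 3 each. Transcripts entered by being in the authors' lists of heat changes, HT against NT, at both ages. This held for 580 of the 6438 transcripts listed at either age.

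Leaves of a growing plant pass from a stage of cell division, wall building and assembly of the photosynthetic apparatus to a mature stage. Chlorophyll a/b binding proteins are the antenna proteins that hold the chlorophyll of the photosystems, and their transcripts are among the most abundant of young leaves. Older leaves are known to carry more pathogenesis-related (PR) proteins, to export nitrogen as nitrate, amino acids and other solutes, and to make more defence metabolites. In potato the same weeks include the change from leafy growth to tuber formation, which is driven by signals sent out from the leaves.

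CPM is a count divided by the library's total and multiplied by 1 fixed factor for all libraries, and log2 changes are NT_8W over NT_3W with ± their approximate standard error (SE). Library totals were 52514661, 63687172 and 57431842 counts in NT_8W and 57089256, 58922414 and 57559575 in NT_3W, so 1 count is close to the same CPM in each. A transcript is called when edgeR's quasi-likelihood test gave a Benjamini-Hochberg adjusted p under 0.05. Nothing in the labels ties replicates to separate plants. The p-values therefore cover only the variation among these libraries, part or all of which may be technical. Transcripts differ in length, and levels of different transcripts are compared only as RPKM, reads per kilobase of transcript, scaled to the library total.

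Of the 580 transcripts, 450 passed the filter on low counts, and 240 of those were called (53.3%). Of these 169 were higher in NT_8W (37.6% of those tested) and 71 lower (15.8%). The changes were large: 94 calls were over 16-fold higher, 49 were over 16-fold lower, and the smallest called change was 2.4-fold. These sizes depend on how the transcripts were listed, as given below. In all 240 called transcripts the 3 NT_8W libraries lay on one side of the 3 NT_3W libraries, as they did for 321 of all 580 (55.3%). The median log2 change of all tested transcripts was 0.95. The split depended on the scaling: TMM over the listed transcripts gave 137 higher and 92 lower, where size factors from DESeq2 gave 132 and 112. These scalings moved the median of all transcripts by -0.74 and -0.97 on the log2 scale.

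The listing bears on these counts and on the sizes of the changes. The authors chose transcripts that differed between HT and NT at both ages, using the same NT libraries that are compared here. In 147 of the 580 the heat change turned round with age, and their heat changes at the 2 ages lay at least 3.19 apart on the log2 scale of the authors' deposited table. An age change at NT equals the age change at HT plus or minus that distance, so its direction follows from the choice unless the HT leaves moved as far. Of these transcripts 144 were tested and 143 called (99.3%). Of the 306 tested transcripts with one heat direction at both ages, 97 were called (31.7%), 78 higher and 19 lower in NT_8W. The 2 directions differed. Of transcripts lower at HT at both ages, 161 of 163 were tested, with 54 higher and 2 lower in NT_8W. Of those higher at HT at both ages, 145 of 270 passed the count filter, with 24 higher and 17 lower. Most of the excess of rises thus came from transcripts lower at HT. Log2 changes ran from -5.31 to 4.43 in those higher at HT at both ages, and from -3.08 to 5.10 in those lower. Every tested change beyond -5.31 or 5.10 was thus of a transcript whose heat change turned round. Medians of the turned transcripts were 5.91 (higher at HT at 3 weeks, lower at 8) and -5.30 (the reverse).

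**Figure D1:**
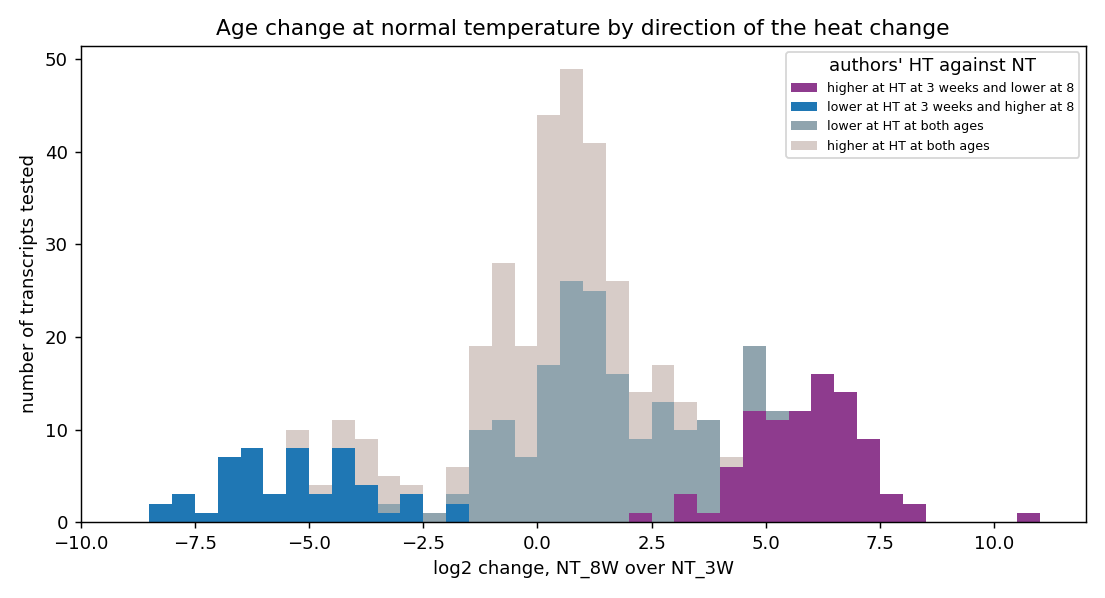
The horizontal axis is the log2 change of NT_8W over NT_3W in bins of 0.5 and the vertical axis the number of tested transcripts, stacked by the direction of the authors' heat change at 3 and 8 weeks. Transcripts higher at HT at 3 weeks and lower at 8 fill the right flank (median 5.91), those lower at 3 weeks and higher at 8 the left flank (median -5.30), and those with one direction the centre.

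Photosynthetic antenna transcripts were far lower at 8 weeks, while small photosystem II subunits were higher. All 7 listed members of the light harvesting list were called, 4 lower and 3 higher, where 53.3% of all tested transcripts were called. The list's median of -6.26 lay among the 4 that fell and does not describe the 3 that rose. All 4 chlorophyll a/b binding transcripts fell, and all 3 transcripts of the 5 and 10 kDa photosystem II proteins rose. The 4 that fell belong to the transcripts whose heat change turned round with age, and the 3 that rose do not.

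A chlorophyll a/b binding protein (PGSC0003DMG400008300) had 28.9, 29 and 32.2 CPM in NT_8W, against 2257, 2383 and 2540 CPM in NT_3W. The libraries of a group were close to each other, and the groups lay 79.7-fold apart, lower in NT_8W (log2 -6.32 ± 0.22, adjusted p = 2.9e-07). The 3 transcripts named chlorophyll a-b binding protein 3C lay between 5.79 and 13.4 CPM in NT_8W and between 424 and 1562 CPM in NT_3W, with log2 changes of -6.26 ± 0.34, -6.48 ± 0.31 and -6.76 ± 0.26. Similar genes of this family may share reads.

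The photosystem II 5 kDa protein PGSC0003DMG400010498, a small subunit of the oxygen-evolving photosystem, had 4.87, 7.91 and 11.7 CPM in NT_8W, against 1.05, 0.849 and 0.591 CPM in NT_3W. Every NT_8W library was higher than every NT_3W library (log2 3.29 ± 0.54, adjusted p = 0.00082). The other 5 kDa transcript and the 10 kDa polypeptide rose by 3.45 ± 0.50 and 2.98 ± 0.55. In the carbon fixation list, rubisco activase 1, which reopens the carbon-fixing enzyme, had 7.2, 7.73 and 12.1 CPM in NT_8W, against 33.7, 31 and 38.3 CPM in NT_3W, and fell by 1.93 on the log2 scale (SE 0.46, adjusted p = 0.0067). Chlorophyllase 2, an enzyme that removes the phytol tail of chlorophyll, had 0.609, 0.612 and 0.992 CPM in NT_8W, against 50.8, 58.9 and 47.2 CPM in NT_3W (log2 -6.14 ± 0.55). Its heat change had turned round with age.

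**Figure D2:**
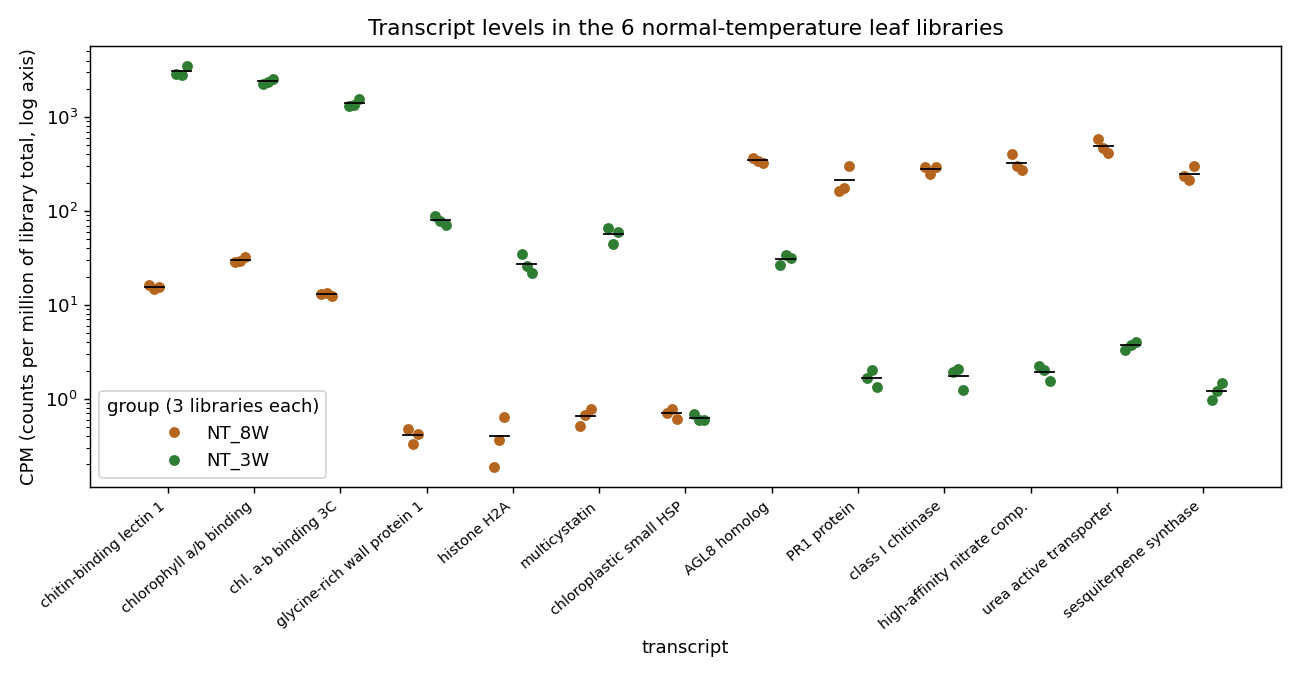
Each point is 1 library, with CPM on a log axis, 13 transcripts along the horizontal axis, NT_8W left of NT_3W, and bars at the group means. The chitin-binding lectin, antenna, wall, histone and multicystatin transcripts sit lower in NT_8W. The chloroplastic small heat shock protein has 0.609 to 0.785 CPM in NT_8W and 0.591 to 0.683 CPM in NT_3W. The PR1, chitinase, nitrogen and terpene transcripts sit higher in NT_8W.

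The most abundant transcript of the set was also one of those that fell most. Chitin-binding lectin 1, which binds the chitin of fungal walls, had 16.1, 14.7 and 15.6 CPM in NT_8W, against 2907, 2827 and 3499 CPM in NT_3W. The groups lay 199-fold apart with little spread within either (log2 -7.64 ± 0.23, adjusted p = 1.8e-07). Per length it averaged 29.8 RPKM in NT_8W and 5930 RPKM in NT_3W, above every other transcript of the set in NT_3W. Both transcripts named 42kDa chitin-binding protein fell too, by 6.86 ± 0.70 and 6.73 ± 0.73 on the log2 scale. The heat change had turned round in all 3 chitin-binding transcripts, so their direction follows from the listing in the sense given above.

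Of 5 listed members of the histone, replication and cell cycle list 4 were tested, 3 fell and none rose, with a median of -5.19. Falls made up 15.8% of all tested transcripts. The heat change had turned round in all 3 members that fell, so their direction follows from the listing in the sense given above. Histone H4, which packs DNA in new chromatin, had 0.686, 0.628 and 1.53 CPM in NT_8W, against 59.3, 40.8 and 36.6 CPM in NT_3W (log2 -5.58 ± 0.64, adjusted p = 0.00013). Histone H2A lay between 0.19 and 0.644 CPM in NT_8W and between 21.6 and 34.5 CPM in NT_3W (log2 -6.09 ± 0.69). A kinesin heavy chain, a motor that moves along microtubules, changed by -4.80 ± 0.66. The fourth, another kinesin, was not called (-1.03 ± 0.53, adjusted p = 0.13). In these bulk samples, fewer cells of a kind and less RNA per cell cannot be told apart.

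Of 19 listed cell wall transcripts 15 were tested, 6 fell, 1 rose and 8 were not called, and the median was -0.81. The heat change had turned round in 5 of the 7 called. Of all tested transcripts 15.8% fell, 37.6% rose and 53.3% were called either way. Glycine-rich cell wall structural protein 1 had 0.476, 0.33 and 0.418 CPM in NT_8W, against 87.6, 79 and 71 CPM in NT_3W. The groups lay 193-fold apart (log2 -7.59 ± 0.54, adjusted p = 2e-05).

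Fasciclin-like arabinogalactan protein 1, a cell surface glycoprotein, had 3.05, 3.85 and 7.64 CPM in NT_8W, against 191, 380 and 396 CPM in NT_3W (log2 -6.06 ± 0.58). Pectinesterase PGSC0003DMG402019255, which trims methyl groups from pectin, changed by -4.24 ± 0.45, and a xyloglucan endo-transglycosylase, which cuts and rejoins wall chains, by -4.31 ± 0.90. The 1 member that rose, a pectin methylesterase inhibitor (PGSC0003DMG400012017), changed by 1.40 ± 0.50. Its call was lost without any 1 of NT_8W replicates 1 and 2 and the 3 NT_3W replicates, and under TMM and DESeq2 size factors no member was called higher. Extensin PGSC0003DMG400000794 was not called, at -1.14, but without NT_3W replicate 1 its change was 3.41 and called. In that setting 1 member of the list was higher and 5 were lower.

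Of 7 members of the lipid list 6 were tested, 3 fell and none rose. The share called was near the 53.3% of all tested transcripts that were called, and 15.8% of all tested transcripts fell. The 3 members that fell were non-specific lipid-transfer proteins, a family that binds and carries lipids. In 2 of them the heat change had turned round. Lipid-transfer protein PGSC0003DMG400019325 was not called (0.90 ± 0.84). The AKCS9 protein had 0.476, 0.722 and 1.24 CPM in NT_8W, against 29, 37.3 and 22.7 CPM in NT_3W (log2 -5.19 ± 0.62). Lipid-transfer protein 1, with 1.85 to 3.83 CPM in NT_8W and 19.8 to 21.1 CPM in NT_3W, fell by 3.02 (SE 0.52), and PGSC0003DMG400025537 by 5.30 (SE 1.01), or by 6.59 without NT_8W replicate 3.

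Members of the PR and defence list went the other way. That list holds none of the chitin-binding transcripts and proteinase inhibitors that fell. Of 16 listed members of the PR and defence list 13 were tested, 11 rose and none fell, with a median of 4.89 where that of all tested transcripts was 0.95. Rises made up 37.6% of all tested transcripts. With DESeq2 size factors 10 members were higher and 1 lower. The heat change had turned round in 9 of the 11, so the count is no independent sign of direction.

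Class I chitinase, which breaks down fungal chitin, had 293, 247 and 291 CPM in NT_8W, against 1.91, 2.07 and 1.25 CPM in NT_3W. It lay 159-fold higher in NT_8W (log2 7.31 ± 0.45, adjusted p = 7.3e-06). All 4 PR-1 transcripts, markers of pathogen responses, rose. PR1 protein PGSC0003DMG400005111 had 163, 177 and 300 CPM in NT_8W, against 1.68, 2.02 and 1.32 CPM in NT_3W (log2 6.99 ± 0.51). NT_8W replicate 3 was the highest library for 3 of these 4, and even the lowest NT_8W library was far above NT_3W. PR1 protein PGSC0003DMG400005113 and the basic PR-1 protein changed by 6.86 ± 0.61 and 6.22 ± 0.75. PR-1 genes are similar to each other and may share reads.

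Of 4 osmotins, antifungal proteins of the PR-5 class, 3 rose and the fourth (PGSC0003DMG400013227) was not called (0.81 ± 0.58). The acidic and basic beta-1,3-glucanases, which cut fungal glucans, rose by 1.91 ± 0.44 and 5.10 ± 0.71. The basic one rose by 5.88 without NT_3W replicate 2, and with TMM or DESeq2 size factors 1 of the pair was called. The acidic glucanase and Hcr2-0A, named after a receptor-like resistance protein and 2.57 ± 0.47 higher, were the 2 members with one heat direction at both ages.

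Proteinase inhibitors were split by kind. Of 10 listed members 9 were tested, 6 fell and 2 rose, and all 8 calls were of transcripts whose heat change turned round. Among all tested transcripts 15.8% fell and 37.6% rose. The 3 multicystatins, inhibitors of cysteine proteases, all fell. Multicystatin PGSC0003DMG400005950 had 0.514, 0.675 and 0.784 CPM in NT_8W, against 65.5, 44.1 and 59.1 CPM in NT_3W (log2 -6.41 ± 0.55, adjusted p = 4.5e-05). Kunitz-type protease inhibitor PGSC0003DMG400009514, an inhibitor of serine proteases, changed by -5.64 ± 0.78.

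The ethylene-responsive proteinase inhibitor 1 rose, with 118, 104 and 192 CPM in NT_8W, against 2.17, 1.6 and 2.17 CPM in NT_3W (log2 6.12 ± 0.52). Kunitz-type inhibitor PGSC0003DMG400015267 also rose, by 4.77 ± 1.17, or by 6.95 without NT_3W replicate 1, whose level was the highest of the NT_3W libraries. Patatin 3, the main storage protein family of tubers, was not called (0.97 ± 0.59).

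Transporters of nitrogen compounds were among the largest rises. The nitrogen list held 3 nitrate transport transcripts, of which 2 rose and 1 fell. The high-affinity nitrate transport system component had 403, 301 and 274 CPM in NT_8W, against 2.26, 2.04 and 1.55 CPM in NT_3W (log2 7.39 ± 0.44, adjusted p = 7e-06). Nitrate transporter PGSC0003DMG400016996 lay between 70.7 and 88 CPM in NT_8W and between 0.42 and 0.764 CPM in NT_3W (log2 7.12 ± 0.56). The third, PGSC0003DMG400025334, fell by 3.31 (SE 0.47).

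A urea active transporter (PGSC0003DMG401007615) had 585, 464 and 412 CPM in NT_8W, against 3.31, 3.73 and 4.05 CPM in NT_3W. It lay 132-fold higher in NT_8W (log2 7.04 ± 0.37), and the sodium/proline symporter annotated beside it by number rose by 6.92 ± 0.57. These 2 names share a locus number and may be parts of 1 gene. A proline transporter rose by 6.77 ± 0.58. Of 3 purine transporters, PGSC0003DMG400009706 had 274, 234 and 134 CPM in NT_8W, against 5.34, 8.69 and 6.86 CPM in NT_3W (log2 4.94 ± 0.48). The others rose by 3.49 ± 0.47 and 2.02 ± 0.68, and the smaller change was called only with all 6 libraries or without NT_8W replicate 2. Carriers of nitrate, urea, proline and purines, grouped by name after their values were seen, numbered 9, all called, 8 higher and 1 lower, where 53.3% of all tested transcripts were called. The heat change had turned round in 7 of the 9. With DESeq2 size factors 7 of them were higher and 1 lower.

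Several enzymes of secondary metabolism were among the large changes. A sesquiterpene synthase, which makes the skeleton of a class of volatile and defence terpenes, had 235, 214 and 299 CPM in NT_8W, against 0.981, 1.2 and 1.48 CPM in NT_3W. It lay 204-fold higher in NT_8W (log2 7.67 ± 0.46, adjusted p = 7e-06). Its heat change had turned round with age, so its direction follows from the listing in the sense given above. Of 12 listed cytochrome P450 transcripts, oxygenases of many pathways, 10 were tested, 7 rose and 1 fell, and DESeq2 size factors gave 6 and 2. Among all tested transcripts 37.6% rose and 15.8% fell. P450 PGSC0003DMG400014009 had 12.1, 13.6 and 22 CPM in NT_8W, against 0.14, 0.119 and 0.278 CPM in NT_3W (log2 6.46 ± 0.66). P450 92B1 changed by 7.50 ± 1.45, with NT_8W replicate 3 at 2.75 CPM against 24.1 and 40.2 in replicates 1 and 2, and by 8.47 without NT_3W replicate 3.

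Of 14 listed glycosyltransferases, which attach sugars to small molecules, 11 were tested, 6 rose and none fell. The share called was near the 53.3% of all tested transcripts that were called. Rises made up 37.6% of all tested transcripts. With DESeq2 size factors 7 glycosyltransferases were higher and 1 lower. Zeatin O-glucosyltransferase, which puts the hormone cytokinin into a bound form, had 65, 58 and 44.5 CPM in NT_8W, against 1.02, 1.8 and 2.88 CPM in NT_3W (log2 4.88 ± 0.60, adjusted p = 0.00019). Glucosyltransferase PGSC0003DMG400016610 had 636 counts over NT_8W and 2 over NT_3W, a ratio of 318 at equal totals with a 95% counting interval of 87.6 to 2631. Intervals from counts cover counting error only. The heat change had turned round in all 6 called glycosyltransferases and in 6 of the 8 called P450 transcripts.

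The phenylpropanoid and flavonoid list was divided: of 13 listed members 12 were tested, 6 rose and 3 fell, and the heat change had turned round in all 9. Among all tested transcripts 37.6% rose and 15.8% fell. With DESeq2 size factors 5 members of the list were called in each direction. Flavonol synthase PGSC0003DMG400007231 and a leucoanthocyanidin dioxygenase (PGSC0003DMG400026277), enzymes of flavonol and anthocyanin synthesis, rose by 6.75 ± 0.60 and 6.32 ± 0.60. Laccase, a copper oxidase that joins phenolics, had 184, 447 and 9.92 CPM in NT_8W, against 2.75, 0.628 and 0.938 CPM in NT_3W. The groups did not overlap, though NT_8W replicate 3 was far below the other NT_8W libraries, and the log2 change was 7.21 ± 1.40, or 6.07 without NT_8W replicate 2.

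Anthocyanin acyltransferase PGSC0003DMG400013169 and chalcone synthase J, the entry enzyme of flavonoid synthesis, changed by -6.51 ± 0.90 and -3.84 ± 0.54. The acyltransferase changed by -5.79 without NT_3W replicate 1. Of 4 polyphenol oxidases, which brown cut tissue, 3 rose and 1 fell, and their sizes, though not their calls, moved with single libraries. The heat change had turned round in all 4. This group was formed after the values were seen.

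**Figure D3:**
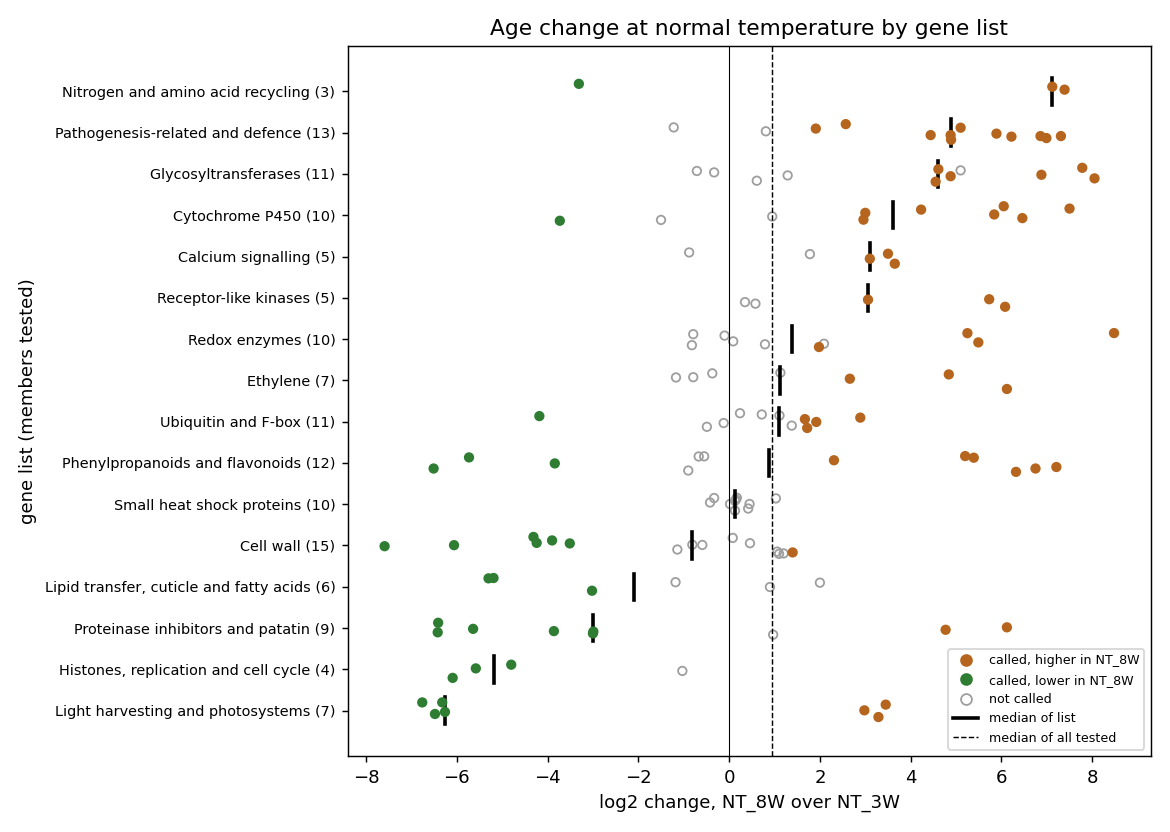
Each point is 1 tested transcript at its log2 change of NT_8W over NT_3W, in rows for the gene lists with at least 3 calls and for small heat shock proteins, with the number tested in brackets. Defence, glycosyltransferase and nitrogen members lie mainly right of the median of all transcripts (dashed, 0.95), wall, histone and lipid members mainly left of 0, and no small heat shock protein is called.

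Redox enzymes and signalling proteins were called in shares near those of all tested transcripts. Of 10 tested redox enzymes 4 rose and none fell, where 37.6% of all tested transcripts rose, and with TMM or DESeq2 size factors 3 were higher and 1 lower. The heat change had turned round in 3 of the 4 called with library totals. Cationic peroxidase 1 (PGSC0003DMG400011948), of a family that oxidises wall phenolics, had 486 counts over NT_8W and 1 over NT_3W, a ratio of 486 with a 95% counting interval of 86.8 to 19228. The single count was in NT_3W replicate 1. The other cationic peroxidase 1 had 8.47, 7.62 and 12.2 CPM in NT_8W, against 0.175, 0.238 and 0.208 CPM in NT_3W (log2 5.49 ± 0.52). Peroxidase PGSC0003DMG400014055 rose by 1.98 ± 0.62, a call lost without any 1 of NT_8W replicates 2 and 3 and NT_3W replicates 2 and 3, and the change was 2.62 without NT_3W replicate 1.

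Of 5 tested receptor-like kinases, which sense signals at the cell surface, 3 rose, 2 of them with a heat change that turned round, led by a receptor kinase (PGSC0003DMG400014577) with 13.7 to 15.5 CPM in NT_8W and 0.156 to 0.245 CPM in NT_3W (log2 6.08 ± 0.54). Of 5 tested calcium signalling transcripts 3 rose and none fell, and all 3 had one heat direction. With TMM or DESeq2 size factors 3 were higher and 1 lower. Calmodulin, the main calcium sensor protein, had 3.33, 2.89 and 2.82 CPM in NT_8W, against 0.228, 0.373 and 0.191 CPM in NT_3W (log2 3.50 ± 0.47, adjusted p = 0.00029). Calmodulin-binding proteins PGSC0003DMG400005390 and PGSC0003DMG400024478 rose by 3.65 ± 0.88 and 3.10 ± 0.69, and by 5.01 and 3.91 without NT_3W replicate 2.

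In the ubiquitin and F-box list, of proteins that mark others for breakdown, 11 of 15 members were tested, 4 rose and 1 fell. All 5 had one heat direction. These shares are near those of all tested transcripts, of which 37.6% rose and 15.8% fell. RING-H2 finger protein ATL1Q had 24.2, 30.7 and 27.8 CPM in NT_8W, against 0.806, 5.19 and 5.13 CPM in NT_3W, where replicate 1 was lowest (log2 2.89 ± 0.73). E3 ubiquitin-protein ligase RMA1H1 (PGSC0003DMG400021683) changed by -4.18 ± 0.48. With DESeq2 size factors 1 was higher and 1 lower. The call of ATL2N (1.92 ± 0.59) was lost without any 1 library other than NT_8W replicate 3. That of F-box protein PGSC0003DMG400023703 (1.72 ± 0.59) was lost without any 1 of NT_8W replicates 2 and 3 and NT_3W replicates 2 and 3.

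Hormone lists were small. The heat change had turned round in 2 of the 3 called ethylene transcripts, the 2 called auxin transcripts and 1 of the 2 called jasmonate transcripts. The direction of these follows from the listing in the sense given above. Of 7 tested ethylene transcripts 3 rose and none fell, a share near the 37.6% of all tested transcripts that rose. TMM or DESeq2 size factors gave 2 higher and 1 lower. Among the 3 was an ethylene-responsive transcription factor (PGSC0003DMG400017233, 4.84 ± 0.69, and 4.16 without NT_8W replicate 3). Of 3 auxin transcripts 2 rose, and the auxin:hydrogen symporter, an export carrier by its name, had 324, 185 and 236 CPM in NT_8W, against 1.23, 2.48 and 1.23 CPM in NT_3W (log2 7.23 ± 0.56). GH3.3-like amido synthetase PGSC0003DMG400024978, which ties auxin to amino acids, rose by 4.63 ± 0.60. In the jasmonate list a lipoxygenase (PGSC0003DMG400010859), of the family that starts jasmonate synthesis, rose by 6.24 ± 0.64, or 6.89 without NT_3W replicate 2, and jasmonate O-methyltransferase by 3.28 ± 0.54.

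Ga20 oxidase, which makes active precursors of the growth hormone gibberellin, had 0.705, 0.267 and 0.662 CPM in NT_8W, against 10.4, 16.3 and 21.8 CPM in NT_3W, and fell by 4.89 (SE 0.64, adjusted p = 0.00026). Its heat change had turned round with age, so its direction follows from the listing. Of transcription factors, 2 of 3 NAC domain proteins, a family with known regulators of leaf ageing, rose. NAC PGSC0003DMG400001223 had 5.87, 8.54 and 7.89 CPM in NT_8W, against 0.14, 0.509 and 0.278 CPM in NT_3W (log2 4.58 ± 0.61), and its heat direction was the same at both ages. Of 3 WRKY factors 1 was called, higher, and of 4 tested MYB, bHLH and homeobox factors 2 fell. The heat change had turned round in the other called NAC protein, in the WRKY factor called and in the 2 factors that fell.

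The flowering, tuberization and clock list held 4 MADS-box factors, a family that sets meristem and flower identity. The agamous-like AGL8 homolog had 370, 340 and 324 CPM in NT_8W, against 26.5, 33.7 and 31.3 CPM in NT_3W. It was 11.3-fold higher in NT_8W with little spread (log2 3.50 ± 0.32, adjusted p = 5.2e-05), and its heat change had one direction. Mads box protein PGSC0003DMG400018623 rose by 1.69 ± 0.43, a call lost with TMM (0.96), with DESeq2 size factors (0.72) and in the fit on all 12 libraries. FBP29 was not called (0.99 ± 0.46, adjusted p = 0.1). The fourth, PGSC0003DMG400022748, was not called (-0.65 ± 0.62), but without NT_8W replicate 3, which held 2.59 CPM against 0.533 and 0.785, its change was -1.63 and called.

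The senescence and protein breakdown list had 2 tested members. Cysteine protease PGSC0003DMG400010215 had 9.94, 22 and 30.9 CPM in NT_8W, against 0.245, 1.58 and 0.782 CPM in NT_3W (log2 4.59 ± 0.84, adjusted p = 0.0016, and 5.35 without NT_3W replicate 2). A subtilisin-like protease changed by -1.80 ± 0.64, a call kept without NT_8W replicate 1, at -2.52, and lost without any other library. No call in the abscisic acid or the starch and sugar list was made, with 1 tested member in each.

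Heat shock proteins, which are chaperones that hold or refold proteins under stress, showed little change with age at NT. Of 11 small heat shock proteins 10 were tested and none was called, with log2 changes from -0.42 to 1.03 and a median of 0.14, against 0.95 for all tested transcripts. The chloroplastic member PGSC0003DMG400003219 had 0.705, 0.785 and 0.609 CPM in NT_8W, against 0.683, 0.594 and 0.591 CPM in NT_3W. Its groups overlapped, and its log2 change was 0.17 ± 0.40. With DESeq2 size factors the median was -0.85 and 1 member was called lower.

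The 8 tested large chaperones and heat factors held 2 calls, both higher. BCL-2-associated athanogene 6, a co-chaperone, had 272, 277 and 191 CPM in NT_8W, against 61, 66.7 and 85.6 CPM in NT_3W (log2 1.80 ± 0.34). DnaJ protein PGSC0003DMG400003565 had 506, 756 and 761 CPM in NT_8W, against 22.5, 120 and 155 CPM in NT_3W (log2 2.76 ± 0.64). NT_3W replicate 1 was the lowest NT_3W library for this one and lay likewise below the other NT_3W libraries for 4 of the other 5 DnaJ proteins, none of which was called. Without NT_3W replicate 1, DnaJ protein PGSC0003DMG400014210 was called, at 1.16 where all 6 libraries gave 1.66 ± 0.71.

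Among transcripts in no list, 2 named undecaprenyl pyrophosphate synthetase, an isoprenoid chain enzyme, were the most abundant rises. PGSC0003DMG401011095 had 843, 809 and 387 CPM in NT_8W, against 11.5, 7.86 and 6.83 CPM in NT_3W (log2 6.28 ± 0.47), and PGSC0003DMG402011095 changed by 7.01 ± 0.60. Their shared locus number leaves it unsettled whether they are parts of 1 gene. A proline-rich protein (PGSC0003DMG400033587) had 0.743, 1.26 and 1.25 CPM in NT_8W, against 97.7, 106 and 96.1 CPM in NT_3W (log2 -6.52 ± 0.52). In this protein and the synthetase transcripts the heat change had turned round, so their direction follows from the listing in the sense given above.

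GI11736, a name with no function given, changed by -6.92 ± 0.48. A C2H2L domain transcription factor had 4 counts over NT_8W, all in replicate 1, and 741 over NT_3W (log2 -7.36 ± 1.19). The heat change of GI11736 and of this factor had likewise turned round with age. The unknown products numbered 161 of the 580 (27.8%). Of their 115 tested members 30 rose and 14 fell. Of 8 tested retroelements and transposases 1 rose, of 6 ion and ABC transporters 2 rose, and of 3 terpene and sterol enzymes 2 rose, with no fall in these lists. Of all tested transcripts 37.6% rose and 15.8% fell.

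Markers of other tissues moved with these groups. The summed level of 8 leaf mesophyll markers, among them the antenna transcripts above, was 86.9 to 103 CPM in NT_8W and 5003 to 5612 CPM in NT_3W, and none was at 0 in either group. The antenna transcripts make up most of that sum, and of the 8 markers 3 rose and 5 fell. That of 4 markers of dividing tissue was 1.39 to 2.65 CPM in NT_8W and 68.9 to 97.2 CPM in NT_3W, and that of 4 epidermis and cuticle markers 2.57 to 5.48 CPM in NT_8W and 45.6 to 63.1 CPM in NT_3W. Of 4 trichome markers, the sesquiterpene synthase and 3 of the polyphenol oxidases above, 3 rose and 1 fell, and the sum was 226 to 347 CPM in NT_8W and 3.43 to 7.3 CPM in NT_3W. Of 8 flower markers, which include the MADS-box factors, 4 rose and 1 fell, and the sum was 342 to 389 CPM in NT_8W and 38 to 44.1 CPM in NT_3W. The 3 root markers summed to 8.67 to 13.7 CPM in NT_8W and 0.508 to 1 CPM in NT_3W. The 3 tuber markers summed to 25.1 to 46.3 CPM in NT_8W and 17.2 to 35.2 CPM in NT_3W, ranges that overlap, as did those of 2 xylem markers. The part of tissue make-up in the results was not tested.

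Libraries of a group were not all alike. NT_8W replicate 3 lay over 4-fold below both other NT_8W libraries for 15 of 432 transcripts, and NT_3W replicate 1 below both other NT_3W libraries for 40 of 427. In the other 4 NT libraries this held for at most 6. Without NT_8W replicate 3, 226 of the 240 calls were made, and without NT_3W replicate 1, 232 were. No call changed its sign without any 1 library.

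The age change at NT was then set against that at HT in 1 fit of all 12 libraries, which tested 576 transcripts. It called 43 for age at HT (7.47%) and 266 for age at NT (46.2%). The HT_8W libraries were uneven. Replicate 1 lay over 4-fold below both others for 54 of 536 transcripts and above both for 26, and replicate 3 above both for 27. The part of this spread in the smaller number of calls at HT was not tested. The median absolute log2 change was 0.73 at HT and 1.67 at NT, and among the 266 calls at NT it was 0.97 at HT and 4.44 at NT. Of these 266, the change at HT had the same sign in 193 (72.6%), where 67.2% of all 576 did.

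The difference itself, the age change at HT minus that at NT, was called for 196 of 576 transcripts (34%), 84 positive (14.6%) and 112 negative (19.4%). The age change at NT was the larger in size in 176 of the 196, and the signs were opposite in 81. This difference equals the heat change at 8 weeks minus that at 3 weeks, on which the transcripts were listed. Of the 146 tested transcripts whose heat change turned round 144 were called, against 52 of the other 430, so the count describes the list. TMM gave 154 positive and 82 negative, and DESeq2 size factors 125 and 96.

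**Figure D4:**
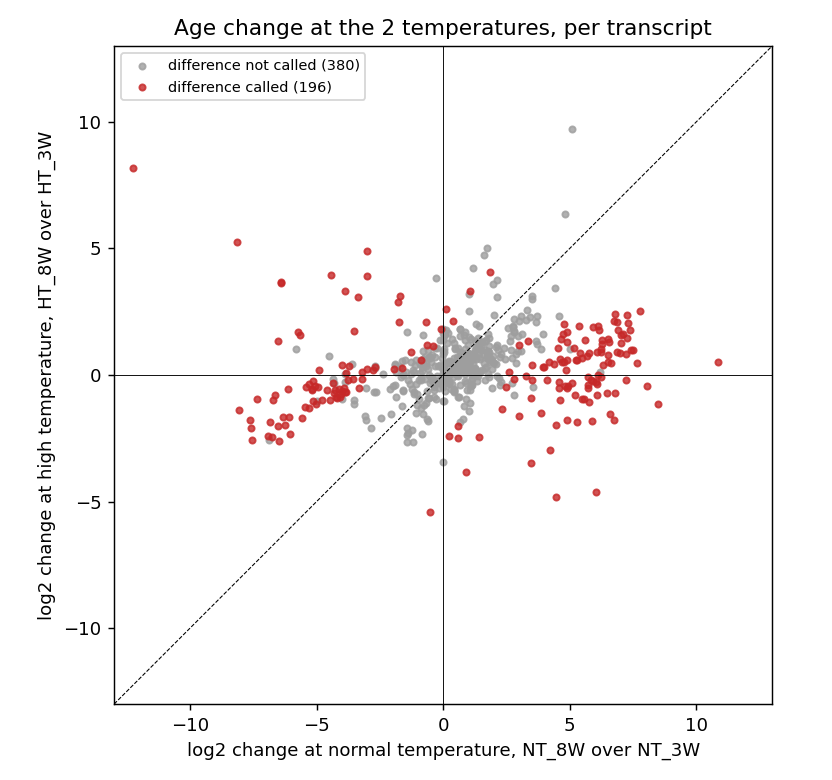
Each point is 1 of 576 transcripts, with the log2 change with age at normal temperature on the horizontal axis, that at high temperature on the vertical axis, and equality dashed. The 196 transcripts whose difference was called (red) lie mostly nearer to 0 at high temperature than at normal temperature.

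For transcripts whose heat change turned round, the values at both temperatures are given as a description. The listing set the sign and a least size of their difference. The chlorophyll a/b binding protein PGSC0003DMG400008300 had 694, 129 and 191 CPM in HT_8W and 1059, 1112 and 991 CPM in HT_3W, a change of -1.64 ± 0.57 at HT, where the NT change was -6.32. HT_8W replicate 1 was the highest HT_8W library for it. PR1 protein PGSC0003DMG400005111 had 6.03, 30.3 and 62.8 CPM in HT_8W and 12.7, 19.3 and 22.1 CPM in HT_3W, where the groups overlapped (0.87 ± 0.64 at HT, where the NT change was 6.99).

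In the defence list 1 member, OSML15, was called for age at HT, lower, where 7.47% of all transcripts were called. The AGL8 homolog, whose heat change had one direction, rose at both temperatures, by 3.00 ± 0.47 at HT, where it had 53.6, 157 and 113 CPM in HT_8W and 15.1, 9.32 and 16.1 CPM in HT_3W, and its difference was -0.50 ± 0.61 (adjusted p = 0.61).

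Of the 10 listed proteinase inhibitors 4 were called for age at HT, all higher, and all 4 fell at NT. Multicystatin PGSC0003DMG400026899 had 130, 10.6 and 37.5 CPM in HT_8W and 2.53, 3.45 and 7.78 CPM in HT_3W, against 0.495, 0.502 and 0.244 CPM in NT_8W and 40.5, 29.1 and 37.4 CPM in NT_3W. Its change was 3.69 ± 0.81 at HT and -6.42 ± 0.61 at NT. All 8 inhibitors called at NT belong to the transcripts whose heat change turned round. This sets the sign and a least size of their difference between temperatures.

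Threonine dehydratase, which opens the path to isoleucine, had 303, 40.6 and 110 CPM in HT_8W and 6.12, 7.7 and 15.7 CPM in HT_3W, against 0.724, 1 and 1.72 CPM in NT_8W and 35, 20.6 and 20.1 CPM in NT_3W. Its change was 3.94 ± 0.74 at HT and -4.45 ± 0.61 at NT. Osmotin OSML15 and TMV-induced protein I went the opposite way, with -4.82 ± 1.15 and -4.61 ± 1.09 at HT and 4.44 ± 1.11 and 6.02 ± 0.96 at NT. The last was 7.92 at NT without NT_3W replicate 2, and OSML15 3.51 without NT_8W replicate 1.

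**Figure D5:**
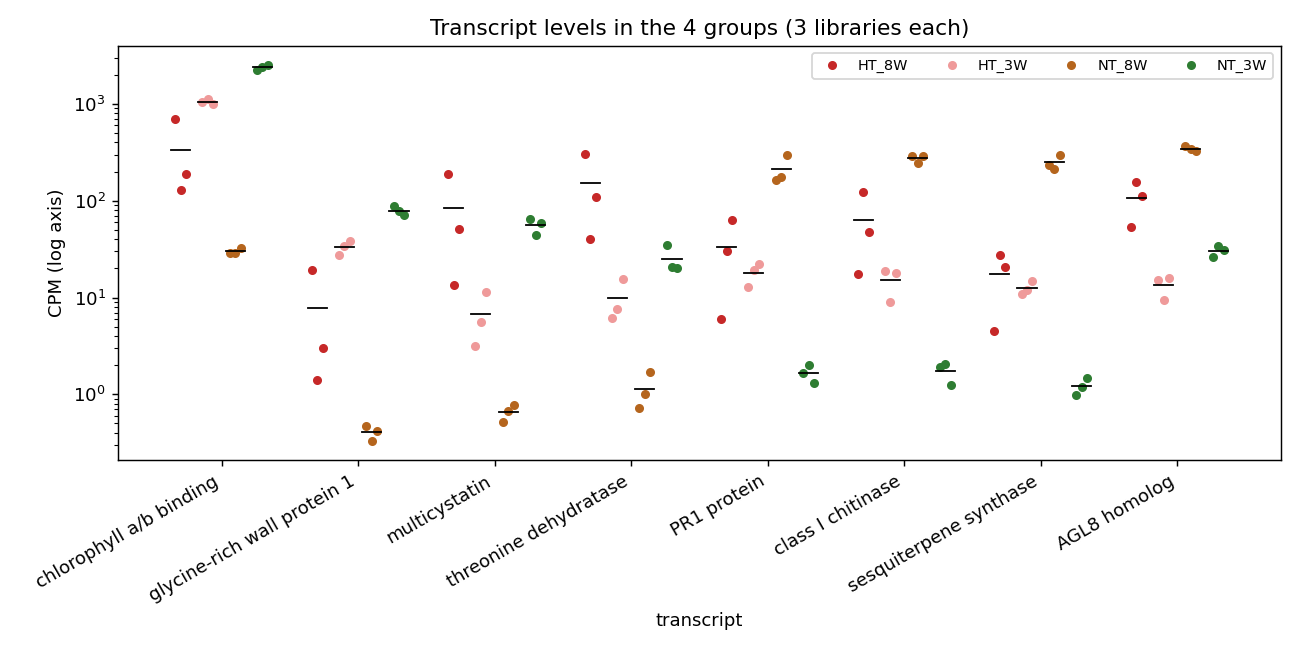
Each point is 1 library, with CPM on a log axis for 8 transcripts in HT_8W, HT_3W, NT_8W and NT_3W, and bars at the group means. Multicystatin and threonine dehydratase are higher in HT_8W than in HT_3W and lower in NT_8W than in NT_3W, while the AGL8 homolog is higher at 8 weeks at both temperatures.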

How the data were processed

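Poly(A) RNA of potato leaves was sequenced from strand-specific libraries, per the labels' protocols. No aligner, counting program or genome build is given in the sources used here. For each library the authors deposited raw counts of the 580 transcripts changed by heat at both ages, with RPKM values, group means (a signal), log2 fold changes, a signed fold change (a score) and p-values, per the file headers. In the authors' deposited tables every transcript had a p-value under 0.01 and an absolute log2 fold change no smaller than 1.5. These 580 hold 0.845% to 1.52% of a library, so library totals were worked out from the deposited counts, lengths and RPKM values, and counts were scaled to them with no further factor.

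Tests used edgeR 4.0.16 in R 4.3.3 (filterByExpr, then the quasi-likelihood test, with Benjamini-Hochberg adjustment over the transcripts tested), on the 6 NT libraries for age and on all 12 for the difference between temperatures. DESeq2 1.42.0, TMM and other settings were alternatives. The tests were checked on simulated counts. SE is the size of a log2 change divided by the root of its F statistic. Groups came from the sample titles. The 34 gene lists are patterns on product names. The deposited identifiers have no match in the gene table used, so no positions or sequences are given.

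Named transcripts were called, did not overlap between groups, averaged at least 10 counts in the higher group and had a known product: the 12 largest rises, the 12 largest falls and up to 4 per list with 3 or more calls. The 6 most abundant, the flowering and senescence lists and 6 of opposite sign at HT were added. Others were chosen after their values were seen: single members of lists that are given for their list's count, Chlorophyllase 2, rubisco activase, Ga20 oxidase, the 5 and 10 kDa photosystem II proteins, the proline and purine transporters, the NAC factor, the GH3 synthetase, the lipoxygenase, the small heat shock protein and the athanogene. Members and lists were chosen with earlier results of these data known. Same-numbered NT libraries did not deviate together in all pairs (correlations 0.29, -0.08 and 0.08), so the numbers were not taken as pairs. Figures were drawn with matplotlib 3.10.9.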

Additional observations from a re-analysis of the deposited data

Results flagged for a closer look

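The age change differed between temperatures by the interaction test for 196 transcripts, a count tied to the authors' choice of transcripts that differ between HT and NT at both ages. Of the transcripts with opposite age changes, the naming rule took the 6 whose smaller absolute age change at either temperature was largest. Their differences are given here as the log2 change at HT minus that at NT with ± SE. The listing set the sign and a least size of these differences, so they are values with no test. Multicystatin PGSC0003DMG400026899 differed by 10.11 ± 1.23 and threonine dehydratase by 8.39 ± 1.06. TMV-induced protein I differed by -10.63 ± 1.58 and osmotin OSML15 by -9.26 ± 1.61.

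The stigma expressed protein PGSC0003DMG400010136 differed by 13.41 ± 2.42. It had 52, 0.661 and 2.53 CPM in HT_8W and 0.139, 0.132 and 1.17 CPM in HT_3W, where HT_8W replicate 1 stood far above the rest, and 0, 0 and 0.0348 CPM in NT_8W, against 4.92, 3.6 and 3.09 CPM in NT_3W. It had 2 counts over NT_8W and 671 over NT_3W, a ratio of NT_3W to NT_8W of 336 with a 95% counting interval of 92.5 to 2777.

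The unknown product PGSC0003DMG400045865 had the largest fitted difference, 20.47 ± 5.37, a value that depends on libraries without counts and is no bound. It was counted in 1 HT_8W library, at 1.85 CPM, and in no HT_3W library. It had no counts in NT_8W and 0, 9.79 and 21.4 CPM in NT_3W, and was not among those tested for age at NT alone.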

How the results depend on the processing

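The 240 calls for age at NT (169 higher, 71 lower) kept their direction in every setting run. DESeq2 size factors gave 244 calls, with 112 lower, of which 202 were among the 240, and TMM gave 229, of which 207 were. Adjusting over the 34088 tests of the authors left 120, 80 higher and 40 lower. The 97 calls with one heat direction at both ages, a setting chosen after seeing the data, were 78 higher and 19 lower. Leaving out 1 library gave 224 to 248 calls, 151 to 170 higher and 70 to 84 lower. For the difference between temperatures (196, with 84 positive and 112 negative) it gave 167 to 199, 71 to 86 and 96 to 119, and TMM gave 154 positive. With a replicate block there were 245 calls for age, 173 higher and 72 lower, and 191 differences, 77 positive and 114 negative. Not every library correlated best with its own number. With no filter 247 were called, with DESeq2's Wald test 255, at an adjusted p under 0.01 207, and with the column sums of the list, which are not library sizes, 245. Of 1200 values for 75 named transcripts 1135 were on the same side of the threshold, 62 lost a call (20 transcripts), 2 gained one and 1 turned, FBP29, which was not called, at -0.01 with DESeq2 size factors. The cause of these moves was not tested. Which scaling is right between ages cannot be settled from a list of 580 chosen transcripts. Low levels in one group, often a few counts, limit the size of the largest folds. With 3 libraries a group, changes under 2.4-fold were not called.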
